A study of Homo sapiens with 12 samples.

Results

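The interferon regulatory factors (IRFs) are transcription factors that share a DNA-binding domain at their amino-terminal end, and they were followed here in a neuroblastoma (NB) cell line treated with interferon gamma (IFNγ). Members were taken by name, as the rows IRF1, IRF2, IRF3, IRF4, IRF5, IRF7, IRF8 and IRF9 of the gene count table, which are 8 of its 43769 genes. All 8 had at least 1 count somewhere, and 7 were among the 15828 genes that passed the expression filter of edgeR and could be tested. IRF4 did not pass. IRF8 passed through IFNγ-treated libraries alone, because it had no count in the others, so that its higher level there is in part fixed by the filter.

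The line was SK-N-DZ, a NB line carrying a doxycycline-inducible hairpin against ARID1A (shARID1A), a subunit of the SWI/SNF chromatin remodeling complex. Bulk RNA-sequencing covered 4 groups of 3 replicates each: untreated control (C), doxycycline alone for 4 days (D), IFNγ alone for 24 hours (I), and doxycycline for 4 days with IFNγ for 24 hours (DI). The labels call C and I "WT" and call D and DI "shARID1A", although the study describes a single clonal inducible line for both. No group used here received doxycycline without the hairpin, so the drug, the hairpin and a loss of ARID1A cannot be told apart, and 1 clone stands for the line.

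IFNγ binds its receptor at the cell surface, where JAK kinases phosphorylate STAT proteins, whose dimers bind short palindromes called GAS elements in the promoters of early genes, of which IRF1 is a classic example. IRF1 then activates a wider set, including genes of antigen presentation, while IRF2 binds many of the same sites and is mostly described as its antagonist. IRF3 and IRF7 are activated by phosphorylation after viral RNA or DNA is sensed and switch on the type I interferon genes, IRF9 joins STAT proteins in the complex ISGF3, which binds the ISRE element, and IRF4, IRF5 and IRF8 are best known from lymphoid and myeloid cells.

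Total counts ranged from 16469832 to 21790869 per library (median 19253482.5), and 3 counts, taken as the detection floor, equalled 0.135 to 0.187 counts-per-million (CPM). ARID1A mRNA did not pass the threshold in D vs C (log2 fold change −0.09, SE 0.109, adjusted p = 0.788 by edgeR) or in DI vs I (−0.44, SE 0.11, adjusted p = 0.115, 0.0111 with the replicate number as a block), so D and DI are named by their labels. The study reports lower ARID1A in its SK-N-DZ knockdown line by qPCR and, as protein, by Western blot. Those assays are not part of the counts used here. The 9 adrenergic NB markers were present in every group, with summed levels of 3970 to 4870 CPM, whereas 9 leukocyte markers summed to 0.513 to 2.24 CPM, with CD3E and MS4A1 among those at 0 in all 12 libraries. The 6 fibroblast and mesenchymal markers, mostly THY1 and PDGFRB, summed to 97.1 to 119 CPM in C and 121 to 158 CPM in I, against 68.7 to 86.4 CPM in D and 93.7 to 122 CPM in DI, and the part of this shift in the results was not tested. Replicates shared a number across groups, and libraries with the same number deviated together. The labels do not say whether replicates were separate cultures, so p-values measure only the spread between these libraries.

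The promoters of the members were examined first, because GAS and ISRE elements are the textbook routes by which interferons reach these genes. A table of RefSeq promoters (GRCh38.p14), each spanning 250 bases before to 50 bases after a start site, held 9 windows for 5 members (IRF1, IRF4, IRF5, IRF8 and IRF9). Windows for IRF2, IRF3 and IRF7 were not analysed here. The IRF8 windows begin at 85902580 and 85902765, inside the gene, whose annotation begins at 85898803. The annotated 5′ end of IRF8 was therefore not searched. The GAS motif TTCNNNGAA, searched on both strands, occurred in 2 windows, those of IRF1 and IRF9, which are shown with the motif in capitals. The IRF1 window is chr5:132490724-132491023 on the minus strand, with its motif TTCCCCGAA beginning at position −124 from the start site. The IRF9 window is chr14:24161015-24161314 on the plus strand, with TTCTGGGAA beginning at −63. Both are written 5′ to 3′ on the gene's strand, and each motif matches on both strands because it is a palindrome.
IRF1: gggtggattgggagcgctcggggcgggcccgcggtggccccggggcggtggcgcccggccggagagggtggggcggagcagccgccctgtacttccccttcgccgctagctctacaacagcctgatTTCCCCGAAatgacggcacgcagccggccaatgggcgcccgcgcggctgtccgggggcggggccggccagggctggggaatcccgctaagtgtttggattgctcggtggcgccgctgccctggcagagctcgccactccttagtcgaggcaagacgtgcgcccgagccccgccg
IRF9: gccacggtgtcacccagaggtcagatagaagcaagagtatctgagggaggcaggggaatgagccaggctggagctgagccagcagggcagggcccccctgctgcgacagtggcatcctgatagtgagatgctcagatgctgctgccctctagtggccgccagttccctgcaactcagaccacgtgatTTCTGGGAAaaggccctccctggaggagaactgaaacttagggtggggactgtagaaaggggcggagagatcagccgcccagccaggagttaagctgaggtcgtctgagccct

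Over all 35116 windows of the same length, 7.66% held the GAS motif. The ISRE core GAAANNGAAA, on either strand, was found in 3.57% of all windows and in 0 of the 9 member windows. A match is a description of the letters and not of STAT or IRF binding, and the absence of a match says only that these letters are not in this window.

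To ask how IFNγ changed the family, I was compared with C, and DI with D. Of the 7 tested members, 6 rose in I vs C (IRF1, IRF2, IRF3, IRF7, IRF8 and IRF9), and 0 fell, by edgeR at an adjusted p under 0.05. Over all tested genes 2.21% were called in this comparison, and 2.1% of all tested genes were called higher. The same 6 members rose in DI vs D, where 1.72% of all genes were called and 1.67% of all genes were called higher. The median log2 fold change of the 7 members was 2.24 in I vs C and 2.13 in DI vs D, beside −0.0081 and −0.012 for all genes, and it does not depend on the value set for IRF8. For these 6 members treated and untreated libraries did not overlap, a pattern seen in the same direction in 8.84% of all genes for I vs C and 5.77% for DI vs D. IRF8 passed the filter through IFNγ libraries alone, so its call and its lack of overlap are in part fixed by that filter. The levels by library are plotted for all 8 members.

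**Figure D1:**
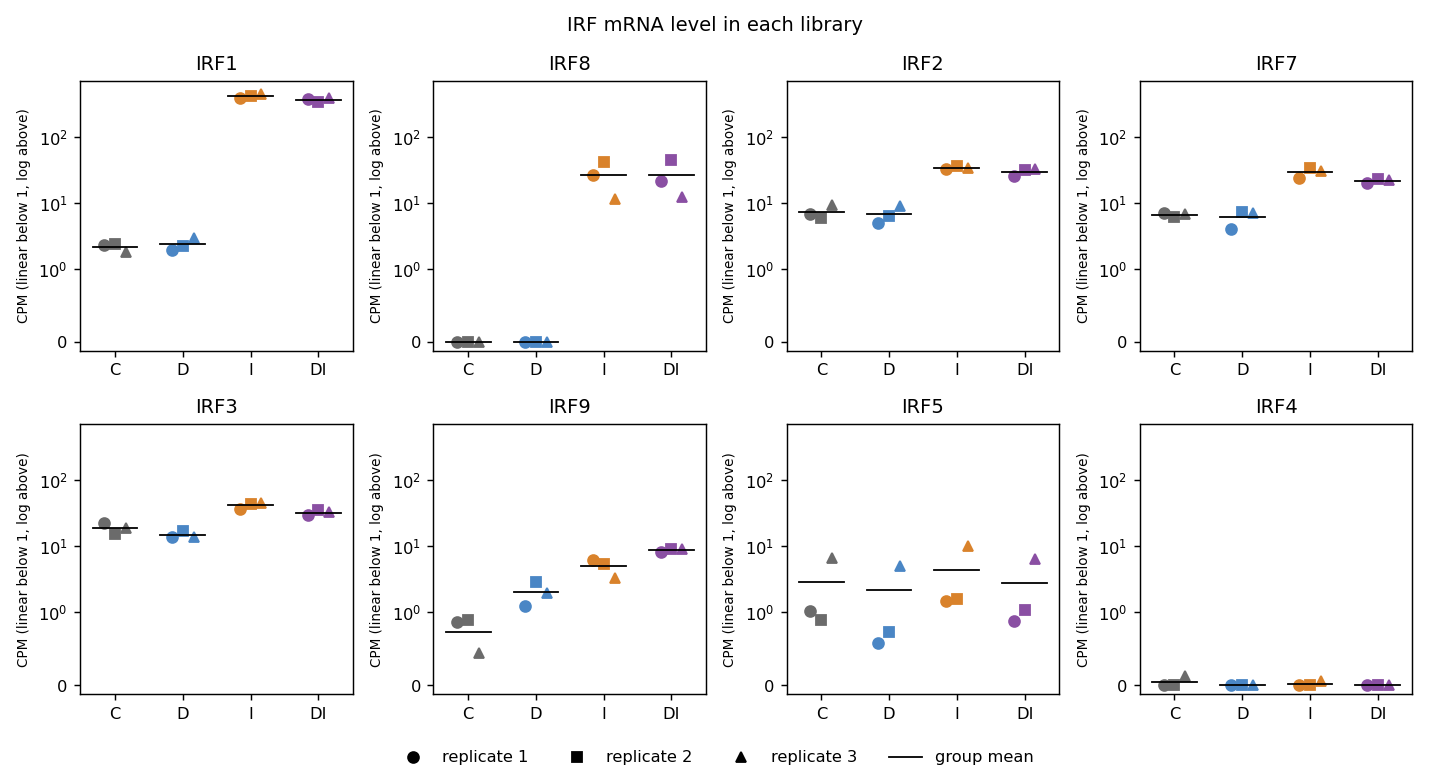
Level of each IRF mRNA in counts-per-million (CPM, linear below 1 and logarithmic above) in the 3 libraries of C, D, I and DI, with symbols for the replicate number and a line at the group mean. IRF1 moves from 1.81 to 2.90 CPM without IFNγ to 342 to 442.5 CPM with it, IRF8 is at 0 in all C and D libraries, and IRF5 is highest in replicate 3 of every group.

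IRF1 (ENSG00000125347, chromosome 5, 132481609 to 132490798, minus strand), the activator, rose from 29 to 50 counts per library to the top of the family. Its levels were 2.27, 2.33 and 1.81 CPM in C, and 380.5, 409 and 442.5 CPM in I. In D they were 1.91, 2.23 and 2.90 CPM, and in DI 376, 342 and 383 CPM. Every IFNγ library was far above every library without it, and the replicates within each group lay close together. The log2 fold change was 7.58 in I vs C (SE 0.176, adjusted p = 2.75e-09 by edgeR), a 191-fold increase, and 7.30 in DI vs D (SE 0.174, adjusted p = 3.47e-09), a 157-fold increase. In both comparisons IRF1 had the smallest adjusted p of all 15828 genes, ranking 1. Of its annotated exon bases, 1716 (22.0%) lie opposite those of the antisense gene IRF1-AS1. IRF1-AS1 summed to 7 counts over C, 2 over D, 911 over I and 618 over DI, and since the strand setting of the counting is not given, reads of the 2 genes cannot be told apart in the shared part. At 911 counts against 23639 for IRF1 in I, the antisense row was the smaller by far.

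IRF2 (ENSG00000168310, chromosome 4, 184387713 to 184474580, minus strand), the antagonist, rose as well, but less. It was at 6.82, 5.81 and 9.10 CPM in C and 32.8, 35.6 and 34.1 CPM in I, then 4.96, 6.26 and 8.92 CPM in D and 25.7, 31.1 and 32.1 CPM in DI. C and D overlapped, and both treated groups stood clear above them. The increase was 4.71-fold in I vs C (log2 2.24, SE 0.227, adjusted p = 0.000153 by edgeR) and 4.42-fold in DI vs D (log2 2.14, SE 0.227, adjusted p = 0.000233). IRF2-DT, the transcript divergent from IRF2, had 0 to 7 counts per library without IFNγ and 21 to 46 with it. Its change in I vs C had an adjusted p of 0.213 by edgeR and 0.049 with the replicate block. IRF2-DT passed the expression filter through I and DI alone, so these p-values are in part fixed by the filter and lend no support.

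Because IRF1 and IRF2 compete for sites, their ratio was computed in each library from CPM per kilobase of annotated exon. IRF1 stood at 0.133, 0.161 and 0.0794 of IRF2 in C and at 0.154, 0.142 and 0.130 in D. With IFNγ the order turned, and IRF1 was 4.64, 4.60 and 5.19 times IRF2 in I and 5.84, 4.39 and 4.77 times in DI. The geometric mean of the ratio was 40.3-fold higher in I than in C and 35.1-fold higher in DI than in D. Neither pair of groups overlapped (exact two-sided permutation p = 0.1 for each, the smallest that 3 against 3 libraries allow, 0.2 after BH adjustment over 4 comparisons). Between D and C the log2 ratio differed by 0.25 (exact permutation p = 0.7). With IFNγ the difference was 0.05 (exact permutation p = 0.8 for DI vs I), and the libraries overlapped in each case.

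IRF8 (ENSG00000140968, chromosome 16, 85898803 to 85922609, plus strand), a factor that directs myeloid and B cell development, had 0 counts in all 6 libraries of C and D. It had 536, 766 and 221 counts in I, equal to 26.5, 41.8 and 11.6 CPM, and 421, 869 and 267 counts in DI, equal to 21.6, 44.6 and 12.03 CPM. Each IFNγ library was well above the floor, and replicate 2 was the highest and replicate 3 the lowest in both groups. Set against a floor of 3 counts in each untreated library, IRF8 was at least 154-fold higher in I than in C and at least 166-fold higher in DI than in D (adjusted p = 0.00348 and 0.00409 by edgeR). Because IRF8 passed the expression filter through I and DI alone, these p-values are in part fixed by the filter and lend no support. A count of 0 limits the untreated level only to below that floor, and the floor covers counting error alone. The study's methods do not mention molecular identifiers. The leukocyte markers summed to 1.17 to 1.62 CPM in C and 0.742 to 2.24 CPM in I. Among them SPI1, which encodes the IRF8 partner PU.1, stayed between 0 and 1.53 CPM over the 12 libraries.

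IRF4 (ENSG00000137265, chromosome 6, 391739 to 411447, plus strand), the lymphoid relative of IRF8, had 2 counts in C replicate 3, 1 count in I replicate 3 and 0 in the other 10 libraries. All 12 values lie under the floor, and no difference was detectable at this depth.

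IRF3 (ENSG00000126456, chromosome 19, 49659569 to 49665875, minus strand), which is held inactive in the cytoplasm until phosphorylated, had the smallest change of the 6. It was at 22.1, 14.9 and 18.4 CPM in C and 36.7, 43.0 and 44.8 CPM in I, and at 13.5, 16.8 and 13.8 CPM in D and 29.2, 34.7 and 32.1 CPM in DI. The lowest treated library still lay above the highest untreated one. IRF3 was 2.25-fold higher in I than in C (log2 1.17, SE 0.163, adjusted p = 0.00185 by edgeR) and 2.17-fold higher in DI than in D (log2 1.12, SE 0.163, adjusted p = 0.00309). With every replicate 3 library left out, an alternative chosen after the data were seen, these changes were 1.10 and 1.09, with adjusted p of 0.107 and 0.131. IRF3 shares 734 exon bases (19.4%) with BCL2L12 on the opposite strand, which summed to 355 counts in C and 330 in I.

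IRF7 (ENSG00000185507, chromosome 11, 612553 to 615999, minus strand), the amplifier of type I interferon production, was at 6.88, 6.16 and 6.79 CPM in C and 23.7, 33.9 and 30.3 CPM in I. In D it was at 4.01, 7.19 and 7.07 CPM, and in DI at 20.2, 22.5 and 21.9 CPM. Treated and untreated libraries were again apart. The increase was 4.43-fold in I vs C (log2 2.15, SE 0.222, adjusted p = 0.000176 by edgeR) and 3.54-fold in DI vs D (log2 1.82, SE 0.22, adjusted p = 0.000681).

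IRF9 (ENSG00000213928, chromosome 14, 24161053 to 24166565, plus strand), the DNA-binding part of ISGF3, was low throughout. It was at 0.860, 0.894 and 0.436 CPM in C, at 6.19, 5.35 and 3.30 CPM in I, at 1.24, 2.79 and 1.91 CPM in D, and at 8.01, 9.08 and 9.05 CPM in DI. The 4 groups were in the order C, D, I and DI with no overlap between neighbours. IRF9 was 6.69-fold higher in I than in C (log2 2.74, SE 0.389, adjusted p = 0.00207 by edgeR) and 4.39-fold higher in DI than in D (log2 2.13, SE 0.367, adjusted p = 0.00985). The DI vs D call was lost without D replicate 3 (log2 2.11, adjusted p = 0.0534). IRF9 shares 1838 exon bases (48.4%) with another protein-coding gene on the same strand, which had no row under its identifier among the counts used here. The IRF9 row is uncertain to the extent that shared reads were set aside or split.

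IRF5 (ENSG00000128604, chromosome 7, 128937612 to 128950035, plus strand), which acts downstream of Toll-like receptors, was the tested member with no call. Its level was 1.05, 0.894 and 6.48 CPM in C, 1.48, 1.58 and 9.80 CPM in I, 0.572, 0.724 and 5.04 CPM in D, and 0.873, 1.08 and 6.35 CPM in DI. In each group replicate 3 was several times the other libraries, so that groups overlapped. The log2 difference was 0.62 in I vs C (95% confidence interval −1.95 to 3.19) and 0.40 in DI vs D (−2.18 to 2.99), both with an adjusted p of 1. Within same-numbered libraries IRF5 was 1.42, 1.77 and 1.51 times higher in I than in C, and with the replicate number as a block the I vs C change was 0.64 (SE 0.214, adjusted p = 0.132 by edgeR).

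**Figure D2:**
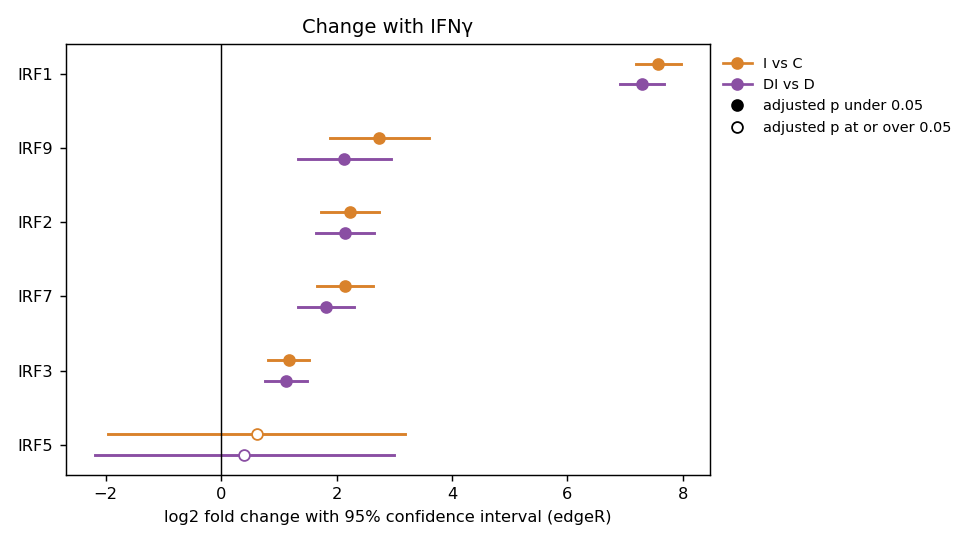
Log2 fold change of 6 tested members with IFNγ, in I vs C and in DI vs D, with 95% confidence intervals from edgeR and filled points for an adjusted p under 0.05. IRF1 lies at 7.58 and 7.30, far beyond IRF9, IRF2, IRF7 and IRF3, whose points lie between 1.12 and 2.74, and IRF5 is the member whose intervals cross 0. IRF8 is left out because it had no count in C or D.

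The order of the members was then compared within each group on the scale of CPM per kilobase of exon. In C, IRF3 was highest at 4.87 ± 0.945 (SD, n = 3), followed by IRF7 at 2.52 ± 0.151 and IRF2 at 2.33 ± 0.541, which did not differ beyond their spread. IRF5 at 0.642 ± 0.728, IRF1 at 0.274 ± 0.0369 and IRF9 at 0.193 ± 0.0672 were low, and the IRF5 libraries overlapped those of IRF1. In I, IRF1 led at 52.7 ± 3.98, and IRF7 at 11.15 ± 1.97, IRF2 at 10.95 ± 0.450 and IRF3 at 10.93 ± 1.13 were indistinguishable. IRF8 followed at 5.16 ± 2.93, above IRF9 at 1.30 ± 0.391 and IRF5 at 0.980 ± 1.09. IRF1 thus went from the lower end of the order to its top.

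The summed level of the 8 members was 10.8 ± 1.74 CPM per kilobase in C and 93.2 ± 7.03 in I, and with doxycycline 9.65 ± 2.02 in D and 81.1 ± 2.48 in DI. IRF1 made up 2.61% ± 0.739 of this sum in C and 56.6% ± 2.74 in I. It made up 3.13% ± 0.325 in D and 58.0% ± 4.51 in DI. IRF3, the largest contributor without IFNγ at 45.1% ± 5.69 in C, held 11.7% ± 0.472 in I although its own level rose. IRF2 went from 21.4% ± 2.36 to 11.8% ± 0.52 and IRF7 from 23.5% ± 2.66 to 11.9% ± 1.29, while IRF8 went from 0 to 5.54% ± 3.00. These shares depend on the exon lengths used, and with the longest annotated transcript of each gene IRF1 held 58.6% in I.

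**Figure D3:**
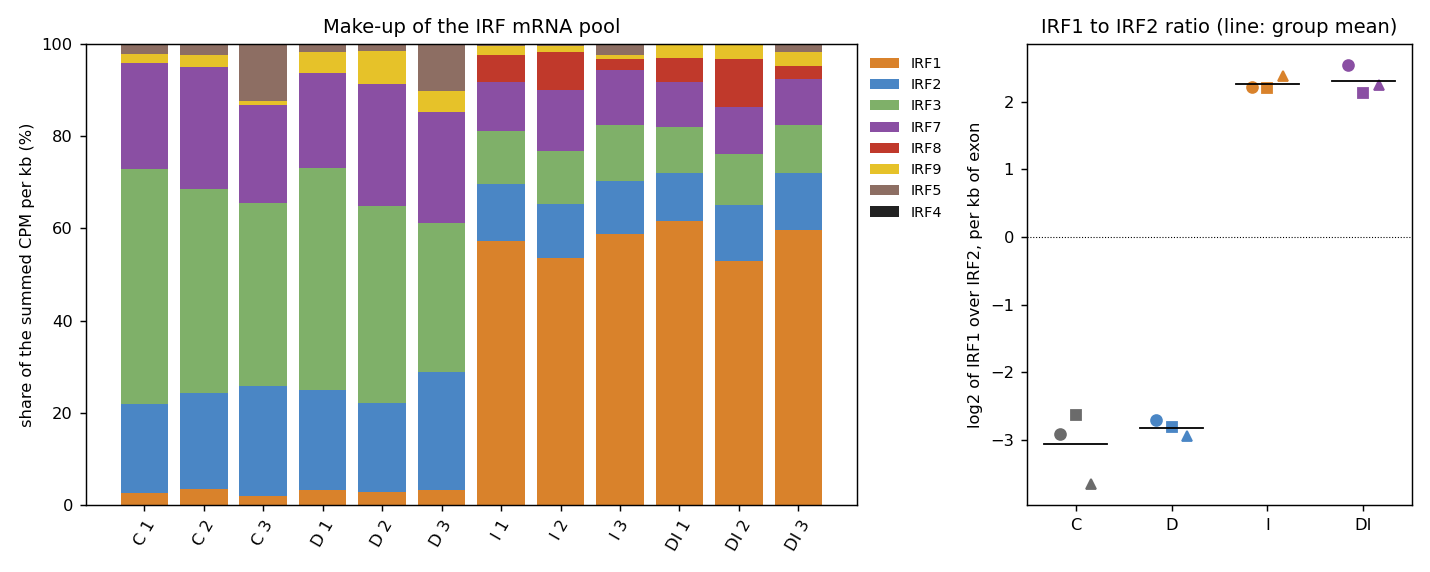
Left, share of each member in the summed CPM per kilobase of exon of the 8 IRF mRNAs in each of the 12 libraries. Right, log2 of the ratio of IRF1 to IRF2 per kilobase, with a line at the group mean and a dotted line at equal levels. IRF3, IRF7 and IRF2 fill most of the bars in C and D, IRF1 fills 52.9% to 61.5% of those in I and DI, and the ratio lies below the dotted line in all 6 libraries without IFNγ and above it in all 6 with it.

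To ask whether doxycycline moved the family, D was compared with C and DI with I. In D vs C, 0 members were called by edgeR, beside 1.23% of all genes, and 1 (IRF9) had an unadjusted p under 0.05. For DI vs I the count was again 0, beside 0.67% of all genes, and 2 members (IRF3 and IRF9) had an unadjusted p under 0.05. DESeq2 and the fit with the replicate block each called 1 member, IRF9, as higher in D vs C, beside 2.23% and 6.23% of all genes, and 0 members under IFNγ.

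IRF9 lay higher in every doxycycline library than in its counterparts, without and with IFNγ. The means were 0.730 ± 0.255 CPM in C and 1.98 ± 0.780 in D (SD, n = 3), and the same-numbered libraries had ratios of 1.44, 3.13 and 4.38, all above 1 as in 22.5% of all genes. Its log2 fold change in D vs C was 1.42 (SE 0.383, 95% confidence interval 0.58 to 2.27, adjusted p = 0.115 by edgeR), with an adjusted p of 0.0259 with the replicate block and 0.0245 by DESeq2. Under IFNγ, IRF9 went from 4.94 ± 1.48 CPM in I to 8.71 ± 0.611 CPM in DI, with same-number ratios of 1.29, 1.70 and 2.74, again all above 1 as in 21.3% of all genes. That log2 difference was 0.82 (0.04 to 1.59, adjusted p = 0.385, 0.0862 with the block). Libraries did not overlap in either comparison, which 10.1% of all genes showed in this direction for D vs C and 8.17% for DI vs I. The IRF9 levels without IFNγ rest on 7 to 54 counts per library.

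The other members gave no call with doxycycline, and their intervals set the limit on what could have been missed. In D vs C the log2 difference was 0.12 for IRF1 (95% confidence interval −0.25 to 0.49), −0.11 for IRF2 (−0.60 to 0.38), −0.33 for IRF3 (−0.69 to 0.03) and −0.12 for IRF7 (−0.60 to 0.36), with adjusted p from 0.401 to 0.892 by edgeR. The libraries of D and C overlapped for each of these 4 members. IRF5 was at −0.41 (−3.01 to 2.19), and IRF8 had no count in either group.

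Under IFNγ the doxycycline libraries tended to the lower side for several members, none of which passed the test. The median log2 difference of the 7 members in DI vs I was −0.20, beside −0.00678 for all genes. IRF3 was at 41.5 ± 4.27 CPM in I and 32.0 ± 2.76 in DI (log2 −0.38, 95% confidence interval −0.73 to −0.02, adjusted p = 0.382 by edgeR). IRF7 was at 29.3 ± 5.18 and 21.5 ± 1.21 CPM (log2 −0.44, −0.91 to 0.02, adjusted p = 0.436). IRF2 was at 34.1 ± 1.40 and 29.6 ± 3.43 CPM (log2 −0.20, −0.68 to 0.27, adjusted p = 0.799). For these 3 members every DI library lay below every I library, as in 8.41% of all genes. With the replicate block the adjusted p was 0.144 for IRF3 and 0.111 for IRF7.

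IRF1 itself was at 411 ± 31.0 CPM in I and 367 ± 21.9 in DI (log2 −0.16, 95% confidence interval −0.44 to 0.12, adjusted p = 0.694 by edgeR). The groups overlapped, and the ratios of same-numbered libraries were 0.987, 0.835 and 0.865. For IRF8 the ratios were 0.815, 1.07 and 1.04, and the means were 26.6 ± 15.1 CPM in I and 26.1 ± 16.7 in DI. IRF5 was lower in DI in all 3 same-numbered pairs, at 0.588, 0.681 and 0.648 of I, as were 24.5% of all genes, and its adjusted p was 0.907 without the block and 0.0797 with it.

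Whether doxycycline changed the IFNγ response was asked by an interaction term, the response in DI vs D minus that of I vs C. By edgeR 0 members were called, beside 0% of all genes, and 0 had an unadjusted p under 0.05. DESeq2 called 0 members and 0.00377% of all genes. The log2 difference of the responses was −0.28 for IRF1 (95% confidence interval −0.75 to 0.18), −0.32 for IRF7 (−0.99 to 0.34) and −0.61 for IRF9 (−1.74 to 0.52), each with an adjusted p of 1. For IRF1 the interval leaves room for a response 0.75 lower on the log2 scale, beside a response of 7.58.

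**Figure D4:**
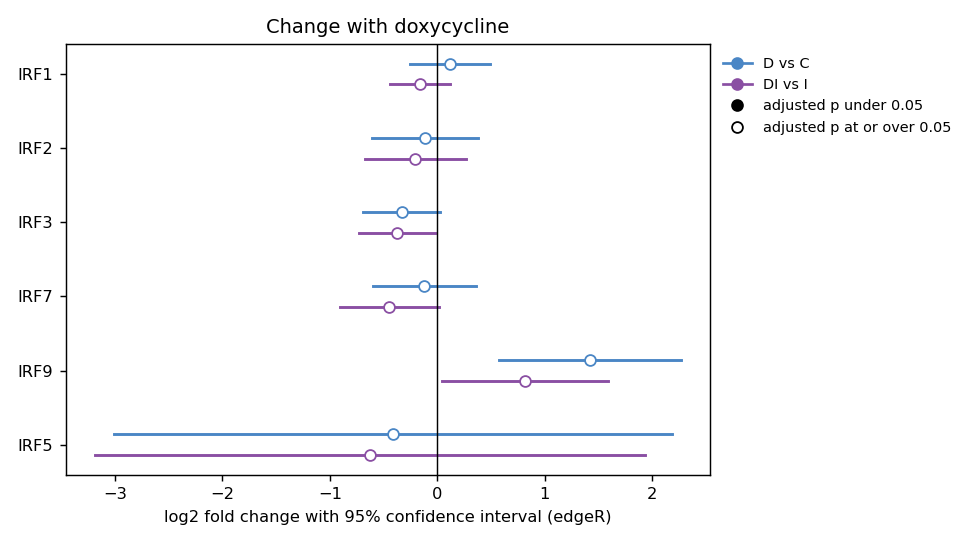
Log2 fold change of 6 tested members with doxycycline, without IFNγ (D vs C) and with it (DI vs I), with 95% confidence intervals from edgeR. All points are open, since no adjusted p was under 0.05. IRF9 is the member whose intervals lie above 0 in both comparisons, IRF3 lies just below 0 in DI vs I, and IRF5 has the widest intervals. IRF8 had no count in C or D and is not drawn.

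The replicate numbers were compared as well. A contrast of replicate 3 with the mean of replicates 1 and 2 over the 4 groups, added after the data were seen, was fitted with the replicate number as a block. It called 36.1% of all genes and 2 of the 7 tested members, which is no larger a share. These were IRF5 (log2 2.76, SE 0.15, adjusted p = 1.08e-06 by edgeR) and IRF8 (log2 −1.44, SE 0.156, adjusted p = 0.000639). The IRF8 value rests on I and DI, because IRF8 had no count in C or D. IRF5 in replicate 3 was 6.20, 6.96, 6.20 and 5.90 times the higher of the other 2 libraries in C, D, I and DI. Such an excess, over 2 times in all 4 groups, was seen in 0.96% of all genes. IRF8 in replicate 3 was 0.277 of the higher of the other 2 libraries in I and 0.270 in DI, and it was below both of them in each group. IRF2 gave 0.32 (adjusted p = 0.0549), and IRF1, IRF3, IRF7 and IRF9 had adjusted p from 0.299 to 0.926. What the replicate numbers stand for is not given by the labels, and a cause for these differences was not tested.

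**Figure D5:**
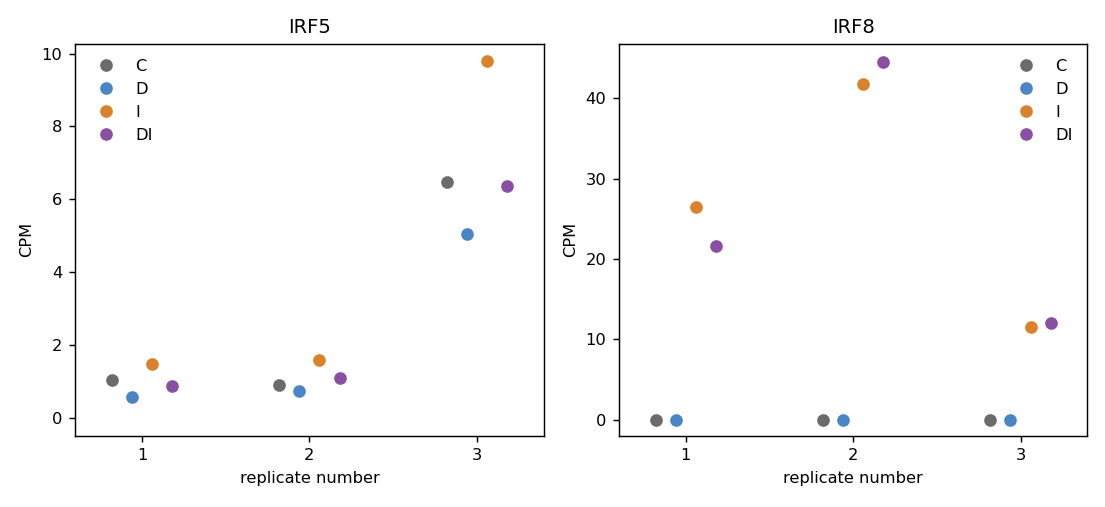
CPM of IRF5 and IRF8 by replicate number, with 1 point for each library coloured by group and points of 1 number set slightly apart. IRF5 in replicate 3 lies at 5.04 to 9.80 CPM in all groups, above 1.58 CPM or less in the others, and IRF8 in I and DI is highest in replicate 2 and lowest in replicate 3.

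The steps before and after the IRFs were described with lists drawn from general knowledge. Of 10 tested genes that carry the signal from interferon receptors to STATs, 4 rose in I vs C and 4 in DI vs D. Their medians were 0.74 and 0.92 on the log2 scale, beside −0.0081 and −0.012 for all genes. Of all genes, 2.1% and 1.67% were called higher. STAT2, the partner of IRF9 in ISGF3, went from 23.6 ± 4.68 to 134.5 ± 26.6 CPM in I (log2 2.51, SE 0.209, adjusted p = 2.92e-05 by edgeR), and the kinase JAK2 from 4.19 ± 0.698 to 31.0 ± 8.66 CPM. In DI vs I the sole call was TYK2, a JAK kinase of the type I receptor, which was higher in DI (log2 0.60, SE 0.107, adjusted p = 0.0341), as were 0.101% of all genes. The TYK2 call was lost when any single library other than C replicate 3, D replicate 2 or DI replicate 2 was left out. It was also lost with no filter beyond 1 count, without all replicate 3 libraries, and when the I and DI libraries were fitted alone.

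Of 14 tested sensors, adaptors and kinases that activate IRF3, IRF5 or IRF7, 3 rose in I vs C and 2 in DI vs D. Beside them, 2.1% and 1.67% of all genes were called higher. In DI vs I 0 of the 14 were called, beside 0.67% of all genes. With the replicate block, 4 rose in DI vs D, beside 3.77% of all genes called higher. Under the block 2 fell in DI vs I, beside 6.62% of all genes called lower. The 3 in I vs C were the RNA sensors IFIH1 (0.0615 to 31.1 CPM) and RIGI (1.79 to 37.7 CPM, log2 4.39, SE 0.264, adjusted p = 2.1e-06 by edgeR) and the adaptor MYD88 (9.71 to 22.4 CPM, log2 1.21, SE 0.243, adjusted p = 0.0238). IFIH1, at 0.0615 CPM in C and 0 in D, passed the expression filter through I and DI alone. So did TLR3, at 0 CPM in C and D, which was among the 4 of the block. Their calls with IFNγ are in part fixed by that filter. RIGI was also the single member of this list called in D vs C (log2 1.20, SE 0.25, adjusted p = 0.0472), where 0.493% of all genes were called higher, and this call was lost when any single library other than I replicate 3 was left out. Of 13 tested partners, coregulators and ubiquitin ligases of IRFs, 2 rose in both IFNγ comparisons without the block. With the replicate block 4 rose in each, beside 4.88% of all genes called higher in I vs C and 3.77% in DI vs D. Those called without the block are named here. The 2 were BATF2, a leucine zipper protein that pairs with IRF1 (2.22 ± 1.44 to 114 ± 33.3 CPM in I), and TRIM21, a ubiquitin ligase of IRF proteins (0.264 ± 0.186 to 58.9 ± 9.25 CPM). TRIM21, near 0 in C and D, also passed the filter through I and DI alone, so its calls are in part fixed by it.

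Genes commonly tied to IRF1 and to ISGF3 moved in larger numbers. Of 23 and 18 listed genes, 20 and 14 passed the expression filter, and the rest were not tested. Of 20 tested IRF1-linked genes, 19 rose in I vs C and 18 in DI vs D, with a median of 6.60 and 6.58 on the log2 scale. In these comparisons 2.1% and 1.67% of all genes were called higher, and the medians of all genes were −0.0081 and −0.012. GBP1, a guanylate-binding protein, went from 0.0615 to 1372 ± 81.4 CPM, PSMB9, an immunoproteasome subunit, from 0.0410 to 309 ± 91.0 CPM, and IDO1, which breaks down tryptophan, from 0 to 70.2 ± 31.2 CPM. Of 14 tested ISGF3-linked genes, 13 rose in I vs C and 12 in DI vs D, among them IFIT3 (0.0617 to 273 ± 67.8 CPM), DDX60 (0 to 64.7 ± 5.15 CPM) and OAS3 (0 to 49.1 ± 15.8 CPM). Many of these genes passed the expression filter through I and DI alone, as IRF8 did, so the counts describe the lists and the medians rest in part on fitted values for genes near 0 in C.

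In DI vs I, 1 of the 20 IRF1-linked genes fell, IL18BP (log2 −1.10, SE 0.155, adjusted p = 0.0107 by edgeR), which encodes a decoy for the cytokine IL-18. Of the 14 ISGF3-linked genes 4 fell, which were IFI27 (−1.81, SE 0.298, adjusted p = 0.0239), IFIT3 (−1.44, SE 0.241, adjusted p = 0.0247), DDX60 (−1.31, SE 0.161, adjusted p = 0.0246) and IFIT2. The median log2 difference was −0.73 over the IRF1-linked list, with 19 of 20 below 0, and −1.11 over the ISGF3-linked list, with 14 of 14 below 0, while IRF1 and IRF9 themselves were at −0.16 and 0.82. Of all tested genes 0.569% were called lower in DI vs I. With the replicate block, 8 of the 20 and 10 of the 14 fell, beside 6.62% of all genes called lower. None of these genes was called when the I and DI libraries were fitted alone or when all replicate 3 libraries were left out, the IL18BP call was also lost without I replicate 1 or I replicate 3, and the ISGF3-linked calls dropped to 0 or 1 without any single library of I or DI.

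Type I interferon genes are the classic products of IRF3 and IRF7. The 11 listed interferon genes of types I, II and III were not detected at this depth, and those outside the list were not examined. Of these 11 genes 0 were tested, and 8 had no count in any library. The highest count of any of them in any library was 2, under the floor of 3 counts.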

How the data were processed

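SK-N-DZ libraries of 4 groups with 3 replicates each were analysed. The authors deposited raw counts per gene, as whole numbers, and these were used as given. The aligner, counter and strand setting are not given in the sources used here, and the submitters' processing notes name DESeq2. Deposited tables of the authors' own comparisons (fold changes and p-values) and 18 per-library columns that the labels do not explain were not used. Groups came from the labels.

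Counts were scaled by TMM, filtered with filterByExpr (minimum count 10) and fitted over all 12 libraries with the quasi-likelihood test of edgeR 4.0.16 (limma 3.58.1, R 4.3.3). Tests were two-sided, adjusted by Benjamini-Hochberg (BH) over all tested genes, and called under 0.05. The model had no replicate block. After group means were removed, same-numbered libraries correlated at 0.321 to 0.839 (18 pairs) and others at −0.663 to 0.183 (36 pairs), so a block was an alternative, as were DESeq2 1.42.0, other scalings and filters, a threshold of 0.01 and leaving out libraries. The fit was tested on simulated data. CPM values use the TMM-scaled library size, and CPM per kilobase divides them by the union of exons in GENCODE release 29 (GRCh38). Exact permutation tests, motif searches and figures used Python 3.11.15 with scipy 1.17.1 and matplotlib 3.10.9. Replicates of a group differed by a chi-square per gene of 19.8 to 85, where counting alone gives about 1.

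The members and lists were chosen with earlier results of these data known. Named genes were the members, up to 3 called genes per list in I vs C and in DI vs I with the largest changes, non-overlapping groups and a mean of at least 1 CPM in either group, genes overlapping a member, markers, and the genes most correlated with each member. IFIT2 was named after its values were seen, to complete a count. The rule by name takes 1 further row, which is not reported here, and some genes that these rules would name are likewise left out. Comparison of protein sequences was not run.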

Additional observations from a re-analysis of the deposited data

How the results depend on the processing

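Each IRF call with IFNγ kept its direction in every alternative run, and the 6 members called in I vs C stayed 6 when any single library was left out, against 5 to 6 in DI vs D. Without every replicate 3 library, 5 were called in I vs C and 4 in DI vs D, with IRF3 at 1.10 (adjusted p = 0.107) and 1.09 (0.131), and IRF9 in DI vs D at 2.10 (0.0868). In D vs C the count was 0 in edgeR without a block but 1, IRF9, both by DESeq2 and with the replicate block, and the block changed no other call of a member. The number of members with an ISRE core was 0, and 2 (IRF5 and IRF8) when 1 or 2 free bases were allowed. That wider core was held by 7.83% of all genes with a window and by 6.40% of all windows. Differences near 0 changed sign, and their causes were not tested. Scaled by library size alone, IRF8 in DI vs I was at 0.063, and without every replicate 3 library IRF1 was at −0.17 in D vs C and 0.048 in the interaction.

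With single libraries left out, IRF5 ranged from −0.88 to 2.14 in I vs C, −1.10 to 2.09 in DI vs D, −2.10 to 1.11 in D vs C, −2.13 to 0.87 in DI vs I and −1.74 to 1.48 in the interaction. IRF8 in DI vs I ranged from −0.66 to 0.45. In D vs C, IRF1 ranged from −0.058 to 0.25, IRF2 from −0.37 to 0.085 and IRF7 from −0.26 to 0.11. In the interaction, IRF1 ranged from −0.41 to 0.048, counting the fit without the replicate 3 libraries, IRF2 ranged from −0.29 to 0.16 and IRF3 from −0.17 to 0.11. Over all genes, D vs C gave 194 calls, 2200 with the block, 649 by DESeq2, 288 scaled by library size alone, 119 with no filter beyond 1 count, 16 from the 6 libraries of C and D alone, 1 without the replicate 3 libraries and 42 to 195 with 1 library left out. DI vs I gave 106 calls, 1658 with the block, 446 by DESeq2, 0 from the 6 libraries of I and DI alone, 2 without the replicate 3 libraries and 35 to 96 with 1 library left out. I vs C gave 350 calls, 953 with the block and 531 by DESeq2, and DI vs D gave 273 calls and 706 with the block. In DI vs I, the calls lower were 1 of the IRF1-linked and 4 of the ISGF3-linked genes, 8 and 10 with the block, 5 and 6 by DESeq2, and 0 and 0 from the 6 libraries of I and DI alone. Among partners of IRFs 3 fell in DI vs I with the block and 0 without, beside 6.62% and 0.569% of all genes called lower. Depth limits IRF4, IRF9 without IFNγ and the interferon genes most, since few reads or none stand behind their values.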

Other observations

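The genes whose log2 CPM followed each member most closely over the 12 libraries are given as a description, since the libraries share treatment and replicate number. IRF1 was followed by UBA7, the ISG15-activating enzyme (Pearson r = 0.9989), GBP1 (0.9983), PSMB9 (0.9981), the peptide transporter subunit TAP2 (0.998) and NLRC5, the transactivator of MHC class I genes (0.9979). IRF2 was nearest to EIF2AK2, the RNA-activated kinase PKR (0.9949), and to SOCS1, the feedback inhibitor of JAK kinases (0.9917), and SOCS1 was also near IRF7 (0.9843) after OPTN (0.9878). IRF8 was nearest to CETP (0.9948) and NUCB1 (0.9926), and IRF3 to TMEM88B (0.9769) and NOD1 (0.9706). For IRF5 the nearest were ADIPOR1 (0.9845) and NFASC (0.9719), and for IRF9 FMR1 (0.9688) and MMP25-AS1 (0.9604).

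The antisense gene IRF1-AS1 had 14.3 to 18.1 CPM in I and 8.47 to 11.6 CPM in DI. The 2 groups did not overlap, which 8.41% of all genes showed in this direction. Its change in I vs C was 6.80 on the log2 scale (SE 0.55, adjusted p = 2.32e-05 by edgeR), from 1 to 4 counts per library in C, while between DI and I the log2 difference was −0.64 (SE 0.384, adjusted p = 0.573). IRF1-AS1 passed the expression filter through I and DI alone, so its p-value in I vs C is in part fixed by the filter and lends no support.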
